A study of Arabidopsis thaliana with 6 samples.

Results

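The genes described here are the core of gibberellin perception in Arabidopsis thaliana: the 3 receptor genes GID1A, GID1B and GID1C, the 5 DELLA repressor genes GAI, RGA, RGL1, RGL2 and RGL3, and the F-box gene SLY1. They were chosen by locus as known components of the pathway and make up 9 of the 33602 genes in the deposited count table. The table holds 6 polyA RNA-seq libraries from the floral abscission zone, the cell layers along which petals, sepals and stamens detach from the flower. The 3 SEC libraries came from secession cells, the abscission zone cells that leave with the separated organs. The 3 REC libraries came from residuum cells, which stay on the receptacle. Plants of both groups carried proQRT2::nlsGFP-GUS, a nuclear reporter driven by the promoter of the polygalacturonase gene QRT2. Flowers of both groups were at stage 16, and no other genotype or treatment is given. Protoplasts were sorted by the reporter's fluorescence, so by protocol each library comes from QRT2-reporter cells taken through cell wall digestion. The purity of the sorted populations was not tested.

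Gibberellin is read by a nuclear switch. The hormone binds a GID1 receptor, the loaded receptor grips a DELLA protein, and the F-box protein SLY1 then brings that DELLA protein to an SCF ubiquitin ligase for destruction. DELLA proteins belong to the GRAS family of nuclear regulators, hold back growth by binding transcription factors and other regulators, and switch on genes for gibberellin synthesis and for the receptors as feedback. In floral organs gibberellin is best known for the growth of stamens and petals, and DELLA proteins link it to jasmonate, brassinosteroid and ethylene signalling.

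The sequences below show how alike the members are, which matters for telling their reads apart. The first set is the coding DNA around the motif that gives DELLA proteins their name, with the 15 bases of the motif's codons in capitals and each sequence written 5′ to 3′ on the coding strand.
GAI: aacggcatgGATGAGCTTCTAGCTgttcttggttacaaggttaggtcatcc
RGA: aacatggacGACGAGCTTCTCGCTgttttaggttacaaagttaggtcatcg
RGL1: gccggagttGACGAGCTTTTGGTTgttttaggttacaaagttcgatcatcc
RGL2: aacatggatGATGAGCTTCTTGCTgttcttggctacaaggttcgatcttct
RGL3: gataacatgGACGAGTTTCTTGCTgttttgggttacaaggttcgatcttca
These windows of 51 bases lie on TAIR10.1 at chr1:5149486-5149536 (plus strand) for GAI, chr2:257174-257224 (minus) for RGA, chr1:24748411-24748461 (plus) for RGL1, chr3:821109-821159 (minus) for RGL2 and chr5:5765747-5765797 (minus) for RGL3. Compared with RGA, 12 bases differed in GAI, 13 in RGL1, 11 in RGL2 and 15 in RGL3. Inside the motif the differences from RGA were 2 bases in GAI, RGL2 and RGL3 and 3 bases in RGL1. The encoded motif residues were the same as in RGA for GAI and RGL2, and differed for RGL1 and RGL3.

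The second set is the coding DNA around the HGG motif of the GID1 receptors, which have the fold of hormone-sensitive lipases. The 9 bases of that motif's codons are in capitals.
GID1A: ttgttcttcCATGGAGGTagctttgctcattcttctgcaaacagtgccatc
GID1B: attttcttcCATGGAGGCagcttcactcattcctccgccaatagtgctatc
GID1C: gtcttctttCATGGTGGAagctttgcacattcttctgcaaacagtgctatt
They lie on the plus strand of TAIR10.1 at chr3:1431577-1431627 for GID1A, chr3:23290249-23290299 for GID1B and chr5:9630033-9630083 for GID1C. Compared with GID1B, 10 bases differed in GID1A and 13 in GID1C. Over the whole coding sequence GID1A and GID1C were 83.1% identical, whereas GID1B was 67.7% identical to GID1A and 68.5% identical to GID1C. Among the DELLA genes GAI and RGA were 74.7% identical and RGL2 and RGL3 were 71.7% identical. The longest identical run between any pair of receptor or DELLA genes was 35 bases, between GID1A and GID1C. No stretch of 50 bases in the exons of any member occurred elsewhere in the genome, and no member overlaps another annotated gene on either strand.

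On TAIR10, as the deposited table gives them, the receptor genes span 1430471 to 1432778 (GID1A, AT3G05120) and 23289425 to 23291486 (GID1B, AT3G63010) on chromosome 3, and 9629087 to 9631210 (GID1C, AT5G27320) on chromosome 5, all on the plus strand with 2 exons each. The DELLA genes have 1 exon each. GAI (AT1G14920) and RGL1 (AT1G66350) lie on the plus strand of chromosome 1, at 5149226 to 5151354 and at 24748195 to 24750043. The other DELLA genes lie on minus strands, RGA (AT2G01570) on chromosome 2 at 255249 to 257550, RGL2 (AT3G03450) on chromosome 3 at 819337 to 821406 and RGL3 (AT5G17490) on chromosome 5 at 5764063 to 5766077. SLY1 (AT4G24210, listed under its other name GID2) is a gene with 1 exon on the plus strand of chromosome 4, at 12563553 to 12564482.

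Total gene counts were 13222538 to 17192864 in the SEC libraries and 13721261 to 14659524 in the REC libraries. Levels are CPM, read counts relative to library size, after TMM scaling, which adjusts library sizes so that most genes are taken as unchanged. At this depth 3 counts in a library correspond to 0.166 to 0.279 CPM, a limit that covers counting error only, because amplified reads are not independent molecules. Whether libraries of a group stem from different plants or different sorts is not stated in the labels. All p-values therefore reflect the spread among these libraries alone, and that spread may be technical. The abscission genes ADPG2 (4568 CPM in SEC, 10.08 CPM in REC), IDA (395 CPM in SEC, 2.17 CPM in REC) and HAE (1314 CPM in SEC, 202 CPM in REC) were higher in SEC. The receptor gene HSL2 was lower in SEC (16.7 CPM in SEC, 55.8 CPM in REC). QRT2, whose promoter drives the sorting reporter, averaged 1716 CPM in SEC and 41.8 CPM in REC. Within REC, replicate 3 had a summed level of 508 CPM for these genes and QRT2, against 208 and 221 CPM in replicates 1 and 2. Summed mesophyll marker levels were 49.4 to 58.7 CPM in SEC and 933 to 2311 CPM in REC, with all 5 tested markers lower in SEC, 3 or 4 of the 8 listed at 0 in each SEC library, and the highest sum in REC replicate 2. Epidermis markers summed to 0.410 to 4.53 CPM in SEC and 137 to 199 CPM in REC, with 5 of 6 lower in SEC. Wound-stress markers summed to 3379 to 3954 CPM in SEC and 419 to 537 CPM in REC, with all 5 tested ones higher in SEC. Guard cell, pollen and xylem markers each summed to at most 1.24 CPM in any SEC library and at most 2.29 CPM in any REC library. The part of these cell type and stress markers in the differences below was not tested, and in sorted populations fewer cells of a type and less RNA per cell cannot be told apart.

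The members split rather than moving together. SEC was compared with REC across the whole table by edgeR's quasi-likelihood test, and a gene was called at a Benjamini-Hochberg adjusted p under 0.05 over the 17246 genes that passed the filter on low counts. Of the 9 members 6 passed that filter, and 5 of them were called, while 60.8% of all genes tested were called. GID1B and RGA were higher in SEC (2 members, against 28.9% of all genes tested higher), and GID1A, SLY1 and RGL3 were lower (3 members, against 31.9% of all genes tested lower). SEC and REC libraries did not overlap for 5 of the 6, where 71.5% of all genes tested did not overlap. With most of the transcriptome called, these counts do not set the members apart from other genes; the description turns on which members moved and which way.

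**Figure D1:**
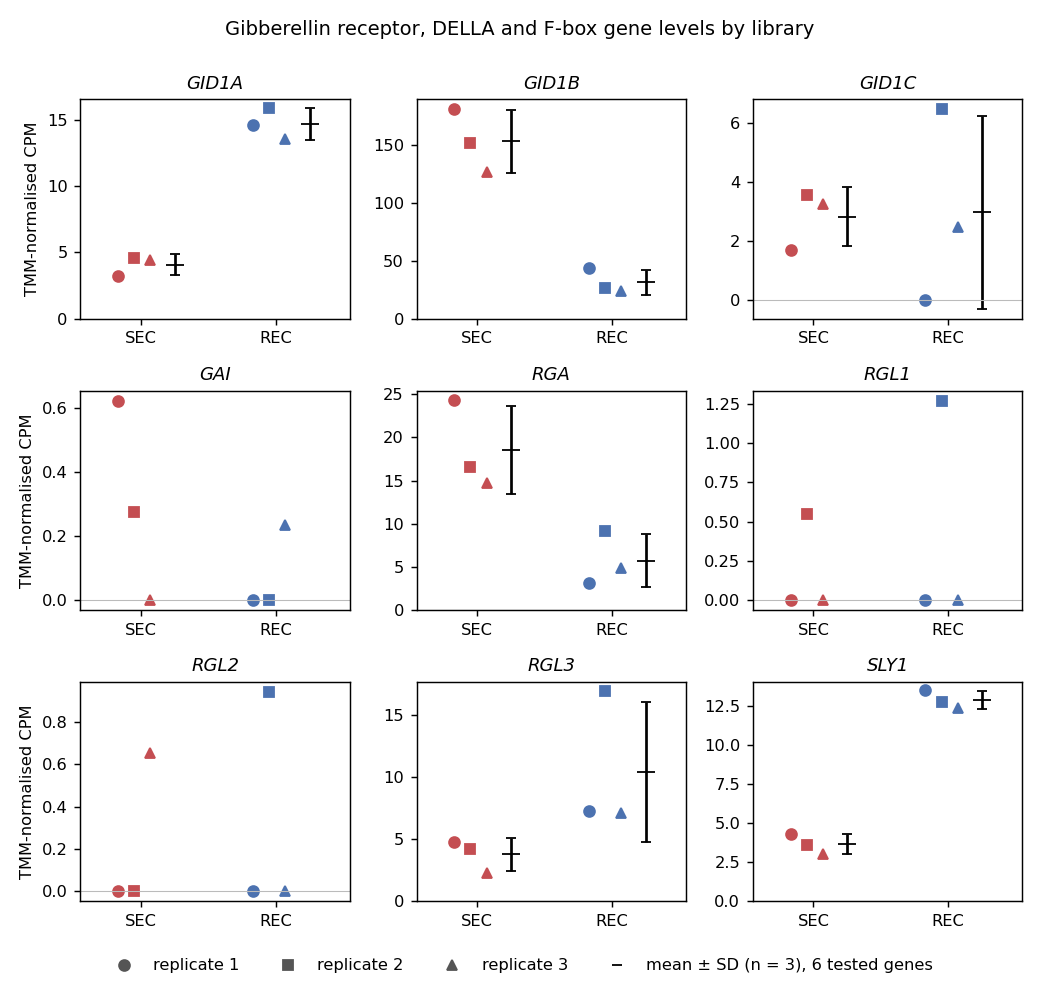
TMM-normalised CPM of each member in the 3 SEC libraries (red, left) and the 3 REC libraries (blue, right), one panel per gene, with mean ± SD (n = 3) for the 6 tested genes and a separate vertical scale in each panel. GID1B and RGA sit higher in every SEC library, GID1A, SLY1 and RGL3 sit lower, and GAI, RGL1 and RGL2 are at or near 0 in both groups.

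Among the receptors, GID1B and GID1A changed in opposite directions. GID1B encodes the receptor reported to bind gibberellin most tightly and to hold DELLA proteins to some extent without hormone. It had 182, 152 and 127 CPM in SEC replicates 1, 2 and 3, against 44.0, 26.7 and 23.8 CPM in REC replicates 1, 2 and 3. The lowest SEC library was above the highest REC library by a wide margin. The log2 fold change was 2.28 ± 0.29 (SE; edgeR adjusted p = 0.000324), a 4.87-fold higher level in SEC, with means of 153 ± 27.4 CPM in SEC and 31.5 ± 10.9 CPM in REC (SD, n = 3 each).

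GID1A, which with GID1C forms the closely related receptor pair that drives most shoot growth, was the opposite case. It had 3.20, 4.58 and 4.46 CPM in the SEC libraries, against 14.6, 15.9 and 13.5 CPM in the REC libraries. Every REC library was above every SEC library, with little spread inside REC. The level was 3.59-fold lower in SEC (log2 fold change -1.84 ± 0.37 SE, edgeR adjusted p = 0.00285), with means of 4.08 ± 0.766 CPM in SEC and 14.7 ± 1.19 CPM in REC (SD, n = 3 each). Counts behind these values were 36 to 67 per SEC library and 230 to 288 per REC library.

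GID1C was not called. It had 1.69, 3.55 and 3.25 CPM in SEC, against 0, 6.46 and 2.47 CPM in REC, where replicate 1 had no read and replicate 2 had 117. The REC libraries bracketed all SEC libraries. The estimate was -0.07 ± 1.29 on the log2 scale (edgeR adjusted p = 0.964), an error wide enough that neither a several-fold rise nor a several-fold fall could be told from no change. Without REC replicate 2 it was 1.18 with an adjusted p of 0.528 in edgeR.

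The receptor pool therefore differed in make-up and, with TMM scaling, in size. Per kilobase of exon, the scale on which levels of different genes can be compared, the summed GID1 level was 91.6, 78.7 and 66.3 CPM per kilobase in SEC and 29.2, 24.9 and 20.1 CPM per kilobase in REC. That is 3.19-fold more in SEC, with no overlap between the groups (exact permutation test, two-sided p = 0.1, the smallest that 3 against 3 libraries can give). The size of this difference depends on scaling, as TMM factors were 0.814 to 0.852 in SEC and 1.18 to 1.24 in REC. With library size alone the log2 fold change of GID1B was 1.735, against 2.28 with TMM. GID1B made up 97.2%, 94.5% and 93.8% of the pool in SEC and 73.9%, 52.5% and 58.2% in REC. GID1A made up 1.82%, 3.04% and 3.51% in SEC and 26.1%, 33.4% and 35.2% in REC. SEC cells thus held receptor transcripts that were nearly all GID1B, while REC cells held a mixture.

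The ratio of GID1B to GID1A, which does not depend on how libraries are scaled, was 53.3, 31.1 and 26.7 in SEC and 2.83, 1.57 and 1.65 in REC (exact permutation p = 0.1, per kilobase of exon). GID1B was higher and GID1A lower in SEC without overlap, so this ratio had to separate the groups and its p is no further evidence. GID1C contributed 0.998%, 2.45% and 2.66% in SEC and 0%, 14.1% and 6.67% in REC. The GID1C shares overlapped, and their mean difference, SEC minus REC, of -4.88 percentage points gave an exact two-sided permutation p of 0.4. That difference ranged from -8.34 to -1.30 points when each library was left out in turn, the smallest size being without REC replicate 2.

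**Figure D2:**
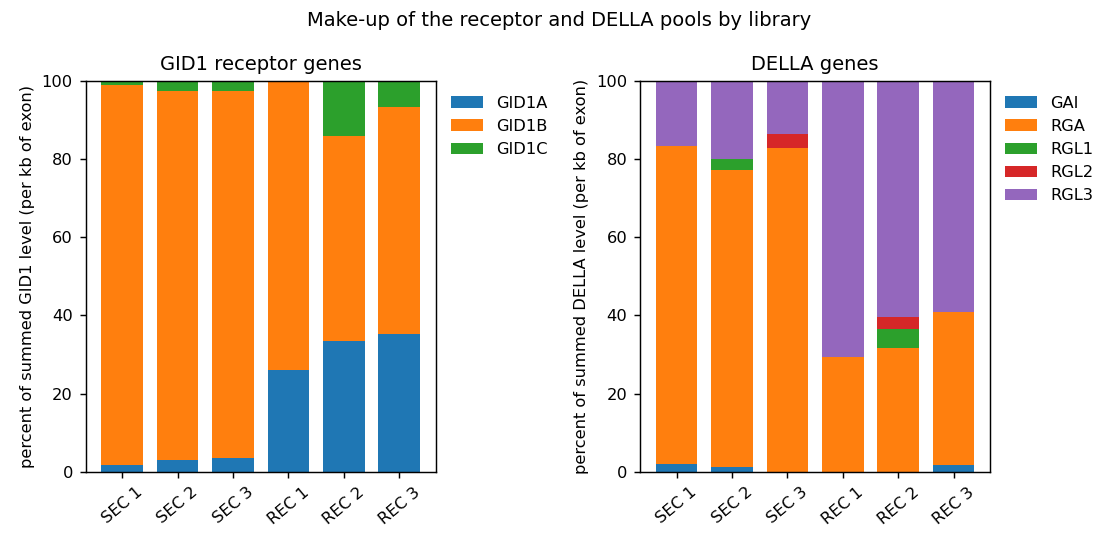
Share of each gene in the summed GID1 level and in the summed DELLA level of every library, in percent of CPM per kilobase of exon, SEC libraries left of REC libraries. GID1B takes at least 93.8% of the receptor pool in SEC and at most 73.9% in REC, and RGA takes at least 76.1% of the DELLA pool in SEC and at most 39.0% in REC.

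Of the 5 DELLA genes only RGA and RGL3 had enough reads to be tested, and they too moved in opposite directions. RGA, with GAI the main restraint on stem and leaf growth, had 24.3, 16.6 and 14.7 CPM in SEC, against 3.14, 9.11 and 4.82 CPM in REC. Every SEC library was above every REC library, with REC replicate 2 the nearest. The level was 3.25-fold higher in SEC (log2 fold change 1.70 ± 0.47 SE, edgeR adjusted p = 0.0137; means 18.5 ± 5.10 CPM in SEC and 5.69 ± 3.08 CPM in REC, SD, n = 3 each). This call rested on SEC replicate 1: without it the log2 fold change was 1.45 with an edgeR adjusted p of 0.0580. With REC replicate 2 left out it was 2.21. With library size alone in place of TMM it was 1.14, with an adjusted p of 0.0700.

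RGL3, a DELLA gene induced by jasmonate and tied to defence, ran the other way. It had 4.79, 4.24 and 2.32 CPM in SEC, against 7.30, 16.9 and 7.11 CPM in REC. The groups did not overlap, but REC replicate 2 was more than the other REC libraries together. The level was 2.76-fold lower in SEC (log2 fold change -1.46 ± 0.54 SE, edgeR adjusted p = 0.0429), which is close to the threshold. Leaving out REC replicate 2 gave -0.93 with an edgeR adjusted p of 0.200. The call was also lost on leaving out SEC replicate 1 (adjusted p = 0.0655 in edgeR), SEC replicate 2 (0.0858) or SEC replicate 3 (0.112), with the replicate number as a block (0.0679) and with no filter on low counts (0.0536). REC replicate 2 also carried the highest mesophyll sum and the highest phloem marker sum (13.9 CPM, against 0.882 and 0.965 CPM in the other REC libraries). It was the highest REC library for 6 of the 9 members, among them RGL1 and RGL2, which had no reads in the other REC libraries. The share of all genes highest in that library was not computed, so this count does not set the members apart.

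GAI, RGL1 and RGL2 were barely detected in either group. GAI, whose semidominant mutant gave the family its founding member, had 7, 4 and 0 counts in SEC and 0, 0 and 4 counts in REC. RGL1 had 8 counts in SEC, all in replicate 2, and 23 counts in REC, also all in replicate 2. RGL2, the main DELLA brake on seed germination, had 7 counts in SEC, all in replicate 3, and 17 counts in REC, all in replicate 2. Reads of RGL1 and RGL2 were each in 1 library per group and those of GAI in 3 libraries in all, and any difference between the groups was not detectable at this depth. When no filter was applied, edgeR gave adjusted p of 0.506 for GAI, 0.710 for RGL1 and 0.868 for RGL2.

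The summed DELLA level overlapped between the groups, at 12.9, 9.40 and 7.63 CPM per kilobase of exon in SEC and 4.58, 12.4 and 5.32 in REC (exact two-sided permutation p = 0.4). Its make-up did not overlap. RGA made up 81.5%, 76.1% and 82.8% of DELLA transcripts in SEC and 29.5%, 31.5% and 39.0% in REC, while RGL3 made up 16.5%, 19.96% and 13.5% in SEC and 70.5%, 60.3% and 59.2% in REC. SEC cells held mostly RGA and REC cells mostly RGL3.

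RGA and GAI together, the pair closest in sequence among the DELLA genes, took 81.2% ± 3.43 of the pool in SEC and 33.9% ± 6.04 in REC (SD, n = 3 each). The difference, SEC minus REC, was 47.3 percentage points, and 45.0 to 50.7 points when each library was left out in turn (exact two-sided permutation p = 0.1, the smallest possible). The ratio of RGA to RGL3 per kilobase was 4.93, 3.81 and 6.15 in SEC and 0.418, 0.523 and 0.659 in REC (exact permutation p = 0.1). RGA was higher and RGL3 lower in SEC without overlap, so this ratio too had to separate the groups, and its p is no further evidence. The share of RGA and GAI restates the same split, as GAI was at most 1.99% of the pool in any library. Its p and its range with libraries left out are no further evidence either. REC replicate 2, where both genes were higher than in the other REC libraries, had a ratio between theirs. Receptor transcripts made up 87.7%, 89.3% and 89.7% of all GID1 and DELLA transcripts in SEC and 86.4%, 66.7% and 79.0% in REC. The mean difference of 11.5 points (exact permutation p = 0.1) shrank to 6.17 points without REC replicate 2. Over the 7 exact tests on shares, sums and ratios, Benjamini-Hochberg adjustment of the permutation p gave 0.14 for the 5 at p = 0.1 and 0.4 for the others. Those 5 include both ratios and the share of RGA and GAI, whose outcomes were set by the genes chosen. They also include the summed GID1 level, which was mostly GID1B in every library and so largely repeats the difference of that gene.

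SLY1, the F-box subunit that hands DELLA proteins to the SCF ligase, was lower in SEC. It had 4.35, 3.62 and 3.07 CPM in SEC, against 13.5, 12.8 and 12.4 CPM in REC. Libraries of a group lay close together, and the groups did not overlap. The level was 3.50-fold lower (log2 fold change -1.81 ± 0.38 SE, edgeR adjusted p = 0.00364), with means of 3.68 ± 0.644 CPM in SEC and 12.9 ± 0.568 CPM in REC (SD, n = 3 each). The fold change was nearly that of GID1A. The calls of GID1A, GID1B and SLY1 were the same in all 15 alternatives of scaling, filter, test, pairing, threshold and left-out library.

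**Figure D3:**
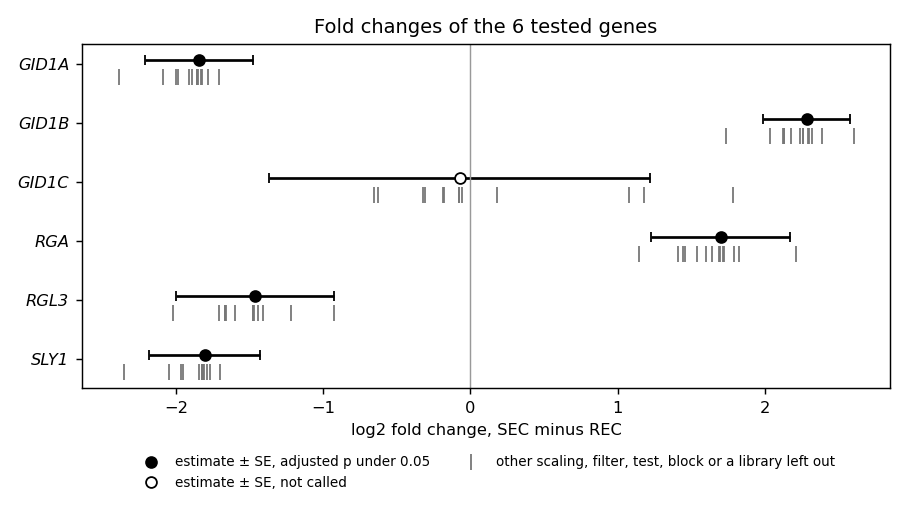
Log2 fold change, SEC minus REC, of the 6 tested members (points, bars are ± SE) with the estimate of every alternative as a grey tick. GID1B at 2.28, GID1A at -1.84 and SLY1 at -1.81 stay on their side in all alternatives, whereas the ticks of GID1C run from -0.65 to 1.78, on both sides of 0.

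Ranked by level per kilobase of exon, GID1B led both groups but stood much further above the rest in SEC. In SEC it averaged 75.2 ± 13.4 CPM per kilobase (SD, n = 3), above 92.0% of genes with a read, followed by RGA at 7.98 ± 2.20, SLY1 at 3.06 ± 0.535 and GID1A at 2.13 ± 0.400. Neighbours in this order did not overlap. GID1A, RGL3 at 1.68 ± 0.574 and GID1C at 1.53 ± 0.543 CPM per kilobase overlapped their neighbours, and GAI, RGL2 and RGL1 followed at 0.123 or less. In REC the order was GID1B at 15.4 ± 5.35 CPM per kilobase (above 72.8% of genes with a read), SLY1 at 10.7 ± 0.472 and GID1A at 7.67 ± 0.622, again without overlap. RGL3 came next at 4.63 ± 2.49, then RGA at 2.45 ± 1.33 and GID1C at 1.61 ± 1.77, with RGL1, RGL2 and GAI at 0.203 or less. From GID1A downward neighbours in REC overlapped, so RGA ranked directly below GID1B in SEC and below RGL3 in REC, where its range overlapped those of RGL3 and GID1C although RGA was below RGL3 within every REC library.

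The genes that make and remove gibberellin mostly had few or no reads, with exceptions on the removal side. Of 14 synthesis genes 4 were tested, with 1 higher, 1 lower and 2 not called, where 60.8% of all genes tested were called. The median log2 fold change of these 4 was 0.98, against -0.07 for all genes tested. No untested synthesis gene had more than 25 counts over the 6 libraries. KAO1 and KAO2 encode ent-kaurenoic acid oxidases, which act at the same step. KAO1 averaged 23.1 CPM in SEC and 7.55 CPM in REC (log2 fold change 1.61 ± 0.43 SE, edgeR adjusted p = 0.0117; adjusted p = 0.0559 with library size alone), and it overlaps another gene on its strand. KAO2 averaged 0.559 CPM in SEC and 11.1 CPM in REC (-4.30 ± 0.62 SE, edgeR adjusted p = 0.000556). The ent-kaurene oxidase gene KO averaged 13.7 CPM in SEC, against 9.91 CPM in REC, and was not called (log2 fold change 0.46, edgeR adjusted p = 0.280). The 20-oxidase and 3-oxidase genes that make the bioactive hormone were all among the untested.

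Of 11 inactivation genes 3 were tested, and 6 had no read in any library. Of the 3 tested, 2 were higher in SEC (28.9% over all genes tested) and none lower (31.9%), with a median of 3.51. GA2OX2 and GA2OX6 encode gibberellin 2-oxidases, which deactivate bioactive gibberellin and its precursors. GA2OX2 had 491, 439 and 490 CPM in SEC, against 6.09, 4.36 and 2.65 CPM in REC. Its level was 108-fold higher in SEC (log2 fold change 6.76 ± 0.37 SE, edgeR adjusted p = 1.33e-05), by far more than that of any member. GA2OX6 had 335, 491 and 381 CPM in SEC, against 80.5, 83.7 and 35.6 CPM in REC, and was 6.04-fold higher (2.59 ± 0.36 SE, edgeR adjusted p = 0.000443). GA2OX4 had 87 counts in SEC and 10 in REC, all 10 in replicate 3, and was not called (3.51 ± 1.46 SE, edgeR adjusted p = 0.0674), although DESeq2 (adjusted p = 0.0451) and limma voom with quality weights (log2 fold change 5.68, adjusted p = 0.00334) called it higher. Without REC replicate 3, the REC library with the highest abscission gene sum, it was at least 27.4-fold higher against a floor of 3 counts over the group (edgeR adjusted p = 0.00447).

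Among 14 genes that degrade or modify DELLA proteins, 13 were tested. SEC was higher for 7 of them (28.9% over all genes tested) and lower for 3 (31.9%), and 3 were not called (median 0.78). With library size alone 5 were higher and 4 lower. Several of the higher ones, the RING genes BRG1, BRG3 and BOI, belong to a small family of DELLA-binding E3 ligases that restrain gibberellin responses. The other member of that family, BRG2, was not called (log2 fold change 0.37, edgeR adjusted p = 0.751), and its groups overlapped. BRG1 averaged 71.99 CPM in SEC and 8.40 CPM in REC (log2 fold change 3.10 ± 0.30 SE, edgeR adjusted p = 7.91e-05). BOI had 123, 211 and 163 CPM in SEC, against 0, 0 and 1.23 CPM in REC (8.63 ± 1.05 SE, edgeR adjusted p = 0.000246). All 21 REC reads of BOI were in replicate 3, and without that library BOI was at least 1962-fold higher. Without REC replicate 2 its log2 fold change was 8.03. The SCF adaptor gene ASK2 was lower, averaging 13.9 CPM in SEC, against 78.9 CPM in REC (-2.50 ± 0.26 SE, edgeR adjusted p = 0.000124), and it overlaps a gene on the opposite strand.

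Other parts of the ligase that SLY1 serves did not follow SLY1 as a group, and the genes named next were picked after their values were seen. CUL1, the scaffold of the SCF ligase, was higher (log2 fold change 1.05; edgeR adjusted p = 0.0692 with library size alone), while RBX1A, its RING subunit, was lower (-0.74) and lost the call without REC replicate 1 or 2 or SEC replicate 1 or 3, with edgeR adjusted p of 0.0937 to 0.118, and with no filter on low counts (0.0537). ASK1 was not called (-0.40). SNE, the F-box gene closest to SLY1 in function, had no read in any library. Higher too were SIZ1 (1.64), a SUMO ligase, BRG3 (2.46) and TOPP4 (1.21), a phosphatase of DELLA proteins. COP1 (-1.07), a ligase that also targets DELLA proteins, was lower. SECRET AGENT, the O-GlcNAc transferase that modifies RGA, was called higher (0.78) but lost the call without REC replicate 1 or SEC replicate 1 or 3, with edgeR adjusted p of 0.0691 to 0.102, with the replicate block (0.0624), with the filter of 10 CPM in 3 libraries (0.0566), and with library size alone (0.471) or upper-quartile scaling (0.102). SPY, which adds fucose to DELLA proteins, was not called (0.12).

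The transcription regulators that DELLA proteins bind were divided. Of 13 tested genes, out of 17 listed, 3 were higher, 3 lower and 7 not called (median -0.81), where 60.8% of all genes tested were called. JAZ1 and JAZ9 encode jasmonate repressors, and they moved apart. JAZ1 averaged 2578 CPM in SEC and 321 CPM in REC (log2 fold change 3.01 ± 0.30 SE, edgeR adjusted p = 9.18e-05), and JAZ9 averaged 11.5 CPM in SEC and 291 CPM in REC (-4.66 ± 0.50 SE, edgeR adjusted p = 0.000127). IDD1, a zinc finger factor that recruits DELLA proteins to DNA, averaged 154 CPM in SEC and 32.0 CPM in REC (2.27 ± 0.27 SE, edgeR adjusted p = 0.000233). The other called genes were the ethylene factor EIN3, higher (1.22), the brassinosteroid factor BES1, lower (-5.01, and -5.80 without SEC replicate 1), and TCP14, lower (-1.90). BES1 overlaps a gene on the opposite strand. TCP14 lost its call without REC replicate 2 or 3 or SEC replicate 1 or 2, with edgeR adjusted p of 0.0640 to 0.115, and under the replicate block (0.1). JAZ1 is itself wound-inducible, and the wound-stress sums given above were also higher in SEC. The part of wounding in the JAZ1 and JAZ9 differences was not tested.

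Genes known as targets of DELLA proteins or as gibberellin-regulated MYB factors were higher where they were called. Of 6 tested genes, out of 10 listed, 5 were higher (28.9% over all genes tested), none lower (31.9%) and 1 not called (median 3.40). The count was 3 higher with any SEC library left out and 4 with library size alone. MYB101, MYB65 and MYB33 encode GAMYB-like factors that act downstream of gibberellin in anthers and seeds. MYB101 had 225, 490 and 325 counts in SEC, against 0, 0 and 7 counts in REC (log2 fold change 7.59 ± 0.97 SE, edgeR adjusted p = 0.000313), and was at least 328-fold higher without REC replicate 3. Without REC replicate 2 its log2 fold change was 7.01. LBD40, a direct DELLA target, had 125 counts in SEC and 0 in REC and was at least 58.7-fold higher, against a floor of 3 counts over the group (edgeR adjusted p = 0.00206). MYB65 averaged 7.54 CPM in SEC and 0.749 CPM in REC (3.31 ± 0.70 SE, edgeR adjusted p = 0.00394), and it overlaps a gene on the opposite strand. The remaining calls were less secure. SCL3, a GRAS gene that opposes DELLA proteins, was higher (3.48; 4.40 without REC replicate 2), with edgeR adjusted p of 0.0501 to 0.0527 when any SEC library was left out. MYB33 was higher (2.52; 3.11 without REC replicate 3), with edgeR adjusted p of 0.0549 to 0.0945 when REC replicate 2 or any SEC library was left out and 0.0685 with library size alone. XERICO was not called (-0.99, edgeR adjusted p = 0.312). The 4 untested genes of this list all had more reads in REC, so the picture above covers only genes that passed the filter. BHLH137 had 0 counts in SEC and 63 in REC, and GNL had 0 and 12, with all REC reads in replicate 2. GNC had 10 counts in SEC and 59 in REC, 56 of them in replicate 2. WRKY27 had 8 counts in SEC and 65 in REC, 51 of them in replicate 3.

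The GASA family, small secreted peptides whose genes include classic gibberellin-induced transcripts, had 6 of 15 genes tested, 1 higher, 3 lower and 2 not called (median -1.11). Over all genes tested, 28.9% were higher and 31.9% lower. GASA14 averaged 0.447 CPM in SEC and 111 CPM in REC (log2 fold change -7.85 ± 0.49 SE, edgeR adjusted p = 1.62e-05; -8.94 without SEC replicate 2). GASA6 averaged 87.4 CPM in SEC and 953 CPM in REC (-3.45 ± 0.27 SE, edgeR adjusted p = 3.23e-05), and it overlaps a gene on the opposite strand. GASA4 averaged 0.591 CPM in SEC and 10.7 CPM in REC (-4.15 ± 0.54 SE, edgeR adjusted p = 0.000348). GASA5, reported to work against gibberellin in flowering, was the only one called higher. It averaged 1019 CPM in SEC, against 435 CPM in REC (1.23 ± 0.23 SE, edgeR adjusted p = 0.0022). The 2 genes not called also had positive estimates, from few reads. GASA10 had 57 counts in SEC and 14 in REC (2.54 ± 1.25 SE, edgeR adjusted p = 0.111). GASA1 had 48 counts in SEC and 12 in REC (2.51 ± 1.83 SE, edgeR adjusted p = 0.262). The epidermis and mesophyll marker sums, lower in SEC, moved in the same direction as GASA14, GASA6 and GASA4, and their part in these differences was not tested.

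The other GRAS genes, relatives of the DELLA genes without the DELLA motif, were 26 in the list, of which 19 were tested. SEC was higher for 8 (28.9% over all genes tested) and lower for 1 (31.9%), and 10 were not called (median 0.93). With library size alone 6 were higher and 3 lower, and under the replicate block 8 were higher and 0 lower. SCL1 averaged 404 CPM in SEC and 99.5 CPM in REC (log2 fold change 2.02 ± 0.20 SE, edgeR adjusted p = 9.39e-05), and it overlaps a gene on the opposite strand. SCL13 averaged 266 CPM in SEC and 85.4 CPM in REC (1.64 ± 0.24 SE, edgeR adjusted p = 0.000611). SCL26 had 140 counts in SEC and 0 in REC and was at least 65.8-fold higher against 3 counts over the group (edgeR adjusted p = 0.00144). The single lower gene was SCR (-1.25 ± 0.41 SE, edgeR adjusted p = 0.0285), a regulator of asymmetric division in roots. SCR lost the call when REC replicate 2, SEC replicate 1 or SEC replicate 2 was left out, to edgeR adjusted p of 0.0759 to 0.0922, and under the replicate block (0.0528).

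**Figure D4:**
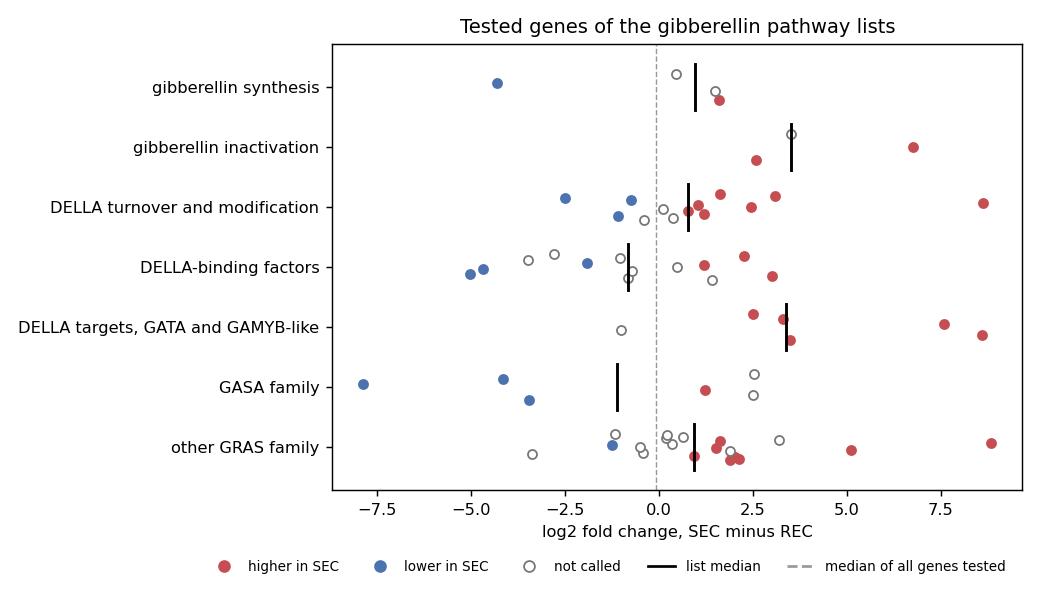
Log2 fold change, SEC minus REC, of every tested gene in 7 lists of the gibberellin pathway (red higher in SEC, blue lower, open circles not called), with list medians as black lines and the median of all genes tested, -0.07, as a dashed line. Inactivation and target genes lie mostly to the right, GASA calls mostly to the left, and the points of LBD40 and SCL26, which have 0 counts in REC, are fitted values and not bounds.

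Across the 6 libraries, the genes most like each tested member by Pearson correlation of log2(CPM + 0.5), among genes with a mean of at least 10 CPM, mostly repeated the split between the groups. For GID1B they were PAO, encoding pheophorbide a oxygenase of chlorophyll breakdown, and AT2G41250, both at r = 0.999. GID1A was nearest to the calmodulin-binding protein gene CAMBP25 (r = 0.9995) and to the sterol reductase gene DIM (0.999). SLY1 was nearest to AT1G79390 and to the ribosomal protein gene RPS28C, both at r = 0.9998. RGA was nearest to TAF2 (0.997), a subunit gene of the general factor TFIID, and to AT3G53540 (0.995). RGL3 was nearest to TIC55 (0.987), of the chloroplast import machinery, and to AT4G08330 (0.985). GID1C reached 0.967 with TCX6 and 0.966 with AT4G15010. With 2 groups of 3 libraries, such values mainly reflect the group difference plus the rank of a few libraries, and they are given as a description.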

How the data were processed

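The authors deposited raw read counts for each gene, without normalisation, for 3 SEC and 3 REC libraries from stage 16 flowers. The submitters' processing notes name TopHat2 2.0.9, HTSeq 0.6.1, Trimmomatic 0.32.3, Picard 1.119, DESeq2, bcl2fastq 1.8.4 and FastQC 0.11.2, and the build TAIR10. The strand setting, the annotation release and whether duplicates were removed were not given in the sources used here. Per the labels' protocols, RNA came from protoplasts, with SMART-Seq amplification and TruSeq libraries. Besides 33602 genes the table has 5 summary rows, left out of all totals: reads with no feature were 42.8% to 45.9% of records, reads at several sites 6.86% to 11.8% and ambiguous reads 0.410% to 0.537%.

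Tests were run on the counts with edgeR 4.0.16 under R 4.3.3 (filterByExpr, TMM, quasi-likelihood test, Benjamini-Hochberg adjustment over 17246 genes, threshold 0.05). Log2 fold changes are those of SEC minus REC, and SE is the fold change divided by the square root of F. A fold against 0 counts uses a floor of 3 counts over the group. Shares use CPM per kilobase of exon and two-sided exact permutation tests over every split of the libraries. The Benjamini-Hochberg adjustment of the permutation p used scipy 1.17.1. Exon lengths, strands, overlaps and printed sequences are from RefSeq TAIR10.1, read with Biopython 1.88. Table starts were read as counted from 0, since 14406 of 32454 matched genes then equal the RefSeq start, against 134 otherwise. Scripts were tested on simulated data in which most genes were unchanged, which does not test TMM scaling where most genes are called.

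Members and gene lists were chosen with earlier results of these data known. Genes named from a list are the 3 tested genes with the smallest adjusted p, unless stated, and all 5 zone markers. Likeness names 2 genes per tested member. Alternatives were RLE, upper-quartile and library-size scaling, no filter, at least 10 CPM in 3 libraries, DESeq2 1.42.0, limma 3.58.1 voom with quality weights, a replicate block, a threshold of 0.01 and each library left out.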

Additional observations from a re-analysis of the deposited data

How the results depend on the processing

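The count of members called higher in SEC was 2, and 1 with library size alone, 1 at an adjusted p under 0.01, and 1 to 2 when each library was left out, with RGA the gene lost in these cases. The count called lower was 3, and 2 to 3 with a library left out. GID1C changed sign under limma voom with quality weights (1.78), the replicate block (1.08), without REC replicate 2 (1.18) and without SEC replicate 1 (0.18), with adjusted p of 0.284 to 0.971 over its 14 alternatives in edgeR, DESeq2 and limma. Its range with each library left out was -0.65 to 1.18. KO changed sign with library size alone (-0.081), a setting in which the median over all tested genes also fell, as given below. The cause of the sign changes of GID1C was not tested. RGL3 could not be fitted under the filter of 10 CPM in 3 libraries. Counts over all genes stayed within 1.5 times of the main ones in 15 alternatives (4091 to 5438 higher and 4981 to 5439 lower with a library left out), and the pathway lists gave 27 genes higher and 11 lower, 23 to 29 and 8 to 12 with a library left out, 21 and 16 with library size alone, and 29 and 13 with DESeq2. The median log2 fold change over all tested genes was -0.61 when scaled by library size alone, against -0.07 with TMM, and 33.7% of calls were then higher, against 47.5%. With upper-quartile scaling it was -0.31, with 41.5% of calls higher.

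Same-numbered libraries did not deviate together (correlations -0.024, -0.013 and -0.017 across genes), so the numbers were not taken as pairs. The replicate block gave 2 members higher and 2 lower, with RGL3 lost (log2 fold change -1.41), 4644 genes higher and 4871 lower, and 26 and 9 genes in the pathway lists. Paired sign-flip tests of the shares gave an exact p of 0.25, the smallest possible, for receptors among receptor and DELLA transcripts and for RGA with GAI, and 0.5 for GID1C. Without division by length the 3 differences in shares were 12.6, 47.0 and -4.61 points, and with coding length 9.93, 47.8 and -4.69. Depth limits GAI, RGL1 and RGL2, at 31 counts or fewer over all libraries, and 3 libraries per group limit every exact test to a p of 0.1.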
